A study of Mus musculus with 6 samples.

Results

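Small intestine converts dietary glutamine and proline into citrulline, which the kidney turns into arginine for the rest of the body, and ornithine is the branch point from which the same pathway also feeds polyamines. The 8 genes described here encode enzymes of that route: Cps1, Otc, Oat, Aldh18a1, Ass1, Asl, Arg2 and Odc1. They were taken by symbol from the 23284 genes of the count files, and all 8 passed the filter on low counts, as did 12106 genes in all. Their values by library come from 3 SHP-KO and 3 WT libraries of male mice aged 8 weeks that were sampled 6 h after food was returned, following a night without it. SHP-KO mice lack the small heterodimer partner, the product of Nr0b2, which represses transcription by binding other nuclear receptors, and the comparison asks how the transcripts of this route differ when it is absent. The RNA was from intestine, with jejunum and ileum given together and no share of either. The labels give neither the strain nor the kind of SHP deletion, and do not say whether each library was 1 animal, so the p-values rest on variation among libraries that may be technical.

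In this pathway P5C synthase (Aldh18a1), starting from glutamate, or proline oxidase yields pyrroline-5-carboxylate (P5C). Ornithine aminotransferase (Oat) turns P5C into ornithine. In the mitochondrion Cps1 makes carbamoyl phosphate and Otc joins it to ornithine to give citrulline. Ass1 and Asl then convert citrulline to arginine in the cytosol, Arg2 splits arginine into ornithine and urea, and Odc1 converts ornithine to putrescine, the first polyamine.

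Total counts ran from 7956528 to 9289543 in the SHP-KO libraries and from 11265437 to 13511800 in the WT libraries. Nr0b2 had 1, 0 and 0 counts in SHP-KO replicates 1 to 3, against 31, 14 and 23 in WT replicates 1 to 3. Epithelial markers were abundant in both genotypes. Levels are in CPM (counts per 1000000 counts of the library, scaled by the TMM method). The 11 epithelial genes summed to between 17738 and 17772 CPM in SHP-KO, against 19032 to 19249 CPM in WT. Of the 11, 3 were called higher and 7 lower, with a median log2 fold change of -0.40. Epcam, Krt8 and Vil1 moved little (log2 0.03, -0.12 and 0.14), whereas Cdx2 and Krt19 fell (log2 -0.92 and -0.82). Several other marker lists moved with genotype. The 10 proximal small intestine markers summed to between 27140 and 27641 CPM in SHP-KO and between 5112 and 5206 CPM in WT, with 9 called higher and 1 lower. Onecut2 (82 counts in all SHP-KO libraries together, 7 in WT) and Cybrd1 (37 and 19) passed the filter on low counts only through SHP-KO. They could hardly be called other than higher. Slc40a1 (25 and 413 counts), the 1 called lower, passed only through WT. The 11 ileum markers summed to between 5279 and 5444 CPM in SHP-KO and between 20971 and 21470 CPM in WT, but 4 of them, Slc10a2 and Enpp3 included, were called higher and 7 lower. Without Fabp6 (144 CPM in SHP-KO, 10778 CPM in WT) the other 10 summed to between 5131 and 5298 CPM in SHP-KO and between 10386 and 10487 CPM in WT. All 10 markers of dividing cells and all 10 B cell markers were called lower, and all 10 smooth muscle markers higher. Over all tested genes 35.4% were called lower and 35.2% higher. The B cell markers had 52 counts in all SHP-KO libraries together and 3513 in WT. They thus passed the filter on low counts only through WT and could hardly be called other than lower. The same holds for Ccnb1 among the markers of dividing cells (17 counts in all SHP-KO libraries together, 129 in WT). The part of these shifts in the results below was not tested, and jejunum share and SHP loss cannot be told apart.

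Among the 8 genes the transcript of Cps1, for carbamoyl phosphate synthesis, fell furthest. The transcript of Odc1, which starts polyamine synthesis, rose by about as much as that of Ass1, whose interval is wide. Of the 8 genes, 2 rose (Odc1 and Ass1), 4 fell (Cps1, Otc, Oat and Asl) and 2 did not pass (Arg2 and Aldh18a1), at an adjusted p under 0.05 in the quasi-likelihood test of edgeR. Over all tested genes 70.6% were called, 35.2% higher and 35.4% lower, so a call as such is near the background here. The members' median log2 fold change was -0.16, beside -0.01 for all tested genes, and the median size of the log2 change was 0.36, beside 0.42. The CPM of the genotypes did not overlap for 6 of the 8 genes, against 72.0% of all tested genes. By size, 3 of the 8 (Cps1, Ass1 and Odc1) were called at 2-fold or more, against 20.0% of all tested genes. The authors' deposited table, whose adjusted p was under 0.05 for 34.6% of its 12939 genes, likewise has 3 of the 8 past that threshold, Cps1, Ass1 and Odc1, with log2 fold changes of -1.75, 1.02 and 1.11. An exact test of edgeR with an assumed CV of 0.2 also left those 3 of the 8, where 33.4% of all tested genes passed.

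**Figure D1:**
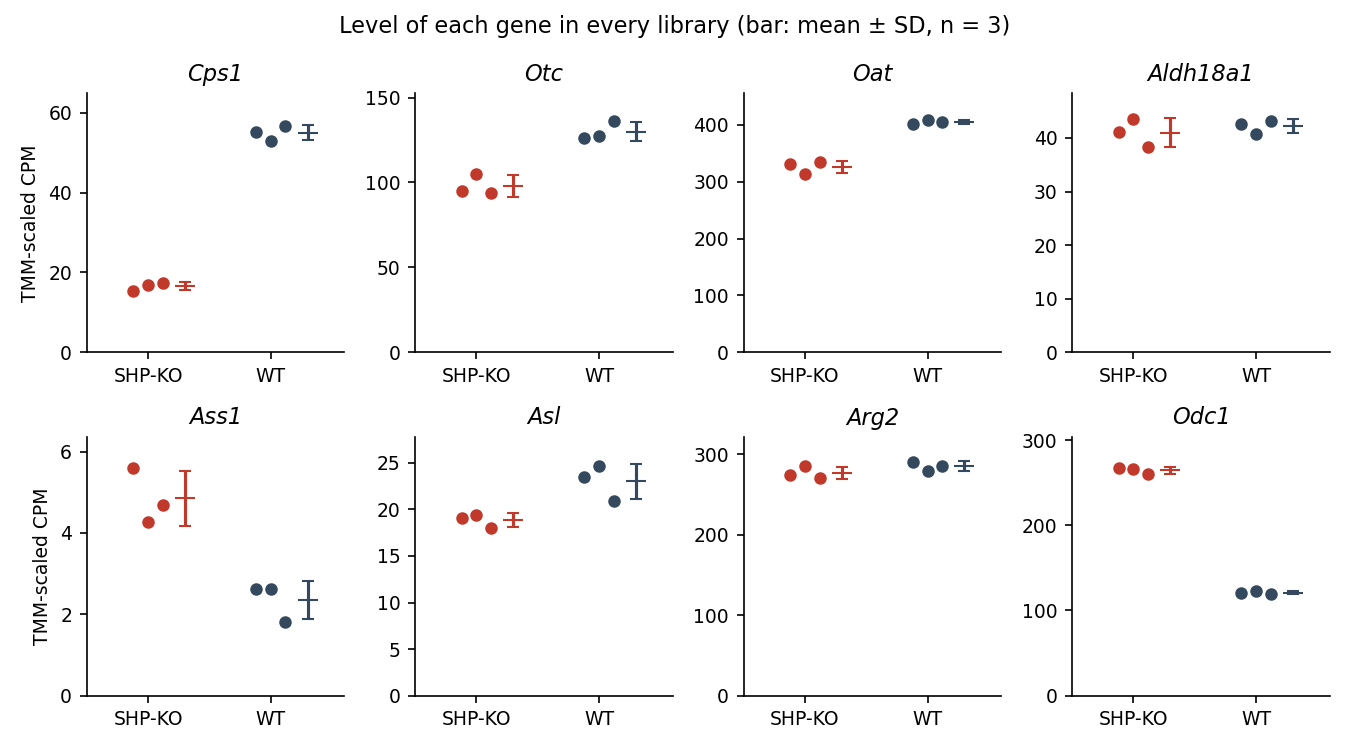
TMM-scaled CPM of each gene in the 3 SHP-KO libraries (red) and the 3 WT libraries (dark), with the mean ± SD beside the points and every vertical axis starting at 0. Cps1 lies between 15.4 and 17.4 CPM in SHP-KO and between 53.0 and 56.8 CPM in WT, whereas the points of Aldh18a1 and Arg2 overlap.

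Cps1, the mitochondrial carbamoyl phosphate synthetase that fixes ammonia, was at 15.4, 16.9 and 17.4 CPM in SHP-KO replicates 1 to 3, against 55.2, 53.0 and 56.8 CPM in WT replicates 1 to 3. Every SHP-KO library was below every WT library. The fall was 3.31-fold (log2 -1.73, SE 0.076, adjusted p 3.1e-36), and 3.67% of all tested genes were called at a fall of 3-fold or more. In bulk tissue fewer cells that express a gene and less RNA per cell cannot be told apart. Cps1 lies on the plus strand of chromosome 1 from 67169640 to 67277022 (mm9), with 38 exon intervals. Liver is another strong source of Cps1 and Otc RNA. The 12 hepatocyte markers summed to between 4.70 and 6.74 CPM in SHP-KO and between 6.19 and 6.78 CPM in WT. Of 3 tested, only Ttr was called, as lower, with 22 counts in all SHP-KO libraries together and 112 in WT. Ttr passed the filter on low counts only through WT and could hardly be called other than lower. Without Ttr the other 11 summed to between 4.04 and 5.85 CPM in SHP-KO and between 3.36 and 3.70 CPM in WT. Alb had 15 counts in SHP-KO and 0 in WT, and Fgb had 0 in every library. The part of liver RNA in the fall of Cps1 was not tested. Nags, which makes the N-acetylglutamate that Cps1 needs for activity and was picked for this role after its values were seen, fell as well, to 51.2 ± 2.77 CPM in SHP-KO, against 65.6 ± 2.14 CPM in WT (SD, n = 3 each; log2 -0.36, adjusted p 5.9e-08).

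Otc, which joins carbamoyl phosphate to ornithine, fell less than Cps1. It was at 94.95, 105.0 and 93.6 CPM in SHP-KO, against 126.0, 127.4 and 136.3 CPM in WT, and the groups did not overlap. That is a 1.33-fold fall (log2 -0.41, SE 0.044, adjusted p 9.9e-14). The gene spans 9829485 to 9898150 on the plus strand of chromosome X (mm9), with 10 exon intervals. Within each library the Otc level per kb of exon was 12.8, 12.9 and 11.2 times that of Cps1 in SHP-KO, against 4.74, 4.995 and 4.985 times in WT. The ratio thus did not overlap between genotypes. Such ratios do not depend on how libraries are scaled.

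Of the transcripts of the enzymes that lead to ornithine, Oat fell slightly and Aldh18a1 did not pass. Oat was the member with the highest CPM, at 330.5, 314.3 and 334 CPM in SHP-KO, against 402, 409 and 405 CPM in WT. All SHP-KO values were below all WT values, a 1.24-fold fall (log2 -0.31, SE 0.030, adjusted p 5.5e-16). It lies on the minus strand of chromosome 7 from 139749158 to 139768081 (mm9). Aldh18a1, the P5C synthase that starts from glutamate, was at 41.1, 43.6 and 38.2 CPM in SHP-KO, against 42.6, 40.8 and 43.3 CPM in WT. Its groups overlapped, and the log2 fold change of -0.04 had a 95% interval of -0.18 to 0.09 (adjusted p 0.56). Aldh18a1 is on the minus strand of chromosome 19, from 40624747 to 40662953 (mm9).

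Asl and Ass1, consecutive steps from citrulline to arginine, moved in opposite directions. Ass1, which condenses citrulline with aspartate, held only 44, 39 and 41 counts in the SHP-KO libraries, against 36, 30 and 24 in the deeper WT libraries. Scaled for depth this was 5.59, 4.26 and 4.69 CPM in SHP-KO, against 2.63, 2.63 and 1.81 CPM in WT. No SHP-KO value reached down to a WT value. The rise was 2.05-fold, with the widest error of the 8 genes (log2 1.03, SE 0.22, adjusted p 1.5e-05). Ass1 spans 31325790 to 31376190 on the plus strand of chromosome 2 (mm9). Asl, which splits argininosuccinate into arginine and fumarate, was at 19.1, 19.4 and 18.0 CPM in SHP-KO, against 23.5, 24.6 and 20.9 CPM in WT. Here too the groups were apart, by less than for the other called genes, and the fall was 1.22-fold (log2 -0.29, SE 0.088, adjusted p 0.0029). Scaled to the epithelium markers in place of TMM, the fall of Asl did not pass (log2 -0.18, adjusted p 0.063), where 70.8% of all tested genes were called. Asl lies on the minus strand of chromosome 5 from 130487373 to 130500201 (mm9).

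Arg2, the mitochondrial arginase that returns ornithine from arginine, was at 274, 285 and 270.3 CPM in SHP-KO, against 291, 279 and 285 CPM in WT. The libraries of the genotypes interleaved, and the 95% interval of the log2 fold change of -0.04 ran from -0.11 to 0.02 (adjusted p 0.23). Arg2 did pass as lower without scaling factors (log2 -0.08, 71.1% of genes called) and without a filter on low counts (log2 -0.10, 54.3% called). Of its 1417 exon bases (chromosome 12, 80231775 to 80257288, plus strand, mm9), 285 overlap exons of Vti1b on the other strand. Counting ignored strand, so reads there cannot be assigned to either gene. Vti1b itself had a log2 fold change of 0.10 (SE 0.040). No other member shares exon bases with another gene in the count files.

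Odc1, ornithine decarboxylase and the entry to polyamine synthesis, rose with the smallest error relative to its size. Its SHP-KO libraries were at 268, 266 and 260 CPM, against 121, 123 and 119 CPM in the WT libraries. The groups were far apart compared with their spread, with coefficients of variation of 1.55% in SHP-KO and 1.52% in WT. The rise was 2.18-fold (log2 1.13, SE 0.036, adjusted p 8.8e-47). Odc1 is on the plus strand of chromosome 12 from 17551679 to 17558308 (mm9), with 12 exon intervals. In the same libraries the 10 markers of dividing cells summed to between 77.7 and 86.4 CPM in SHP-KO and between 215 and 217 CPM in WT. Odc1 is known from other tissues as a transcript that goes with growth, and the part of these markers in its rise was not tested.

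**Figure D2:**
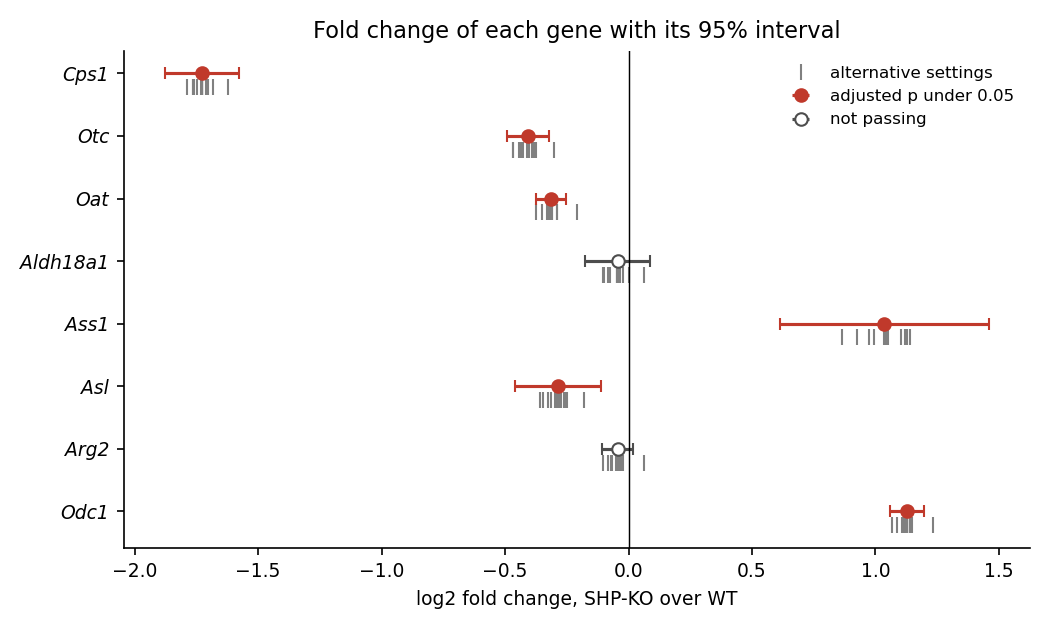
Log2 fold change of SHP-KO over WT for each gene (points) with its 95% interval (bars), filled where the adjusted p was under 0.05, and grey ticks for the alternative settings. Cps1, Otc, Oat and Asl lie left of 0 and Ass1 and Odc1 right of it in every setting that gave a value, whereas the ticks of Aldh18a1 and Arg2 fall on both sides.

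Divided by exon length, levels can be compared roughly between genes. Arg2 was divided by all its 1417 exon bases, though reads in the 285 shared with Vti1b cannot be assigned. Multi-mapping reads were left out for all genes. In SHP-KO the order was Arg2 (195 ± 5.59 CPM per kb), Oat (151 ± 4.87), Odc1 (104 ± 1.61), Otc (43.2 ± 2.74), Asl (12.3 ± 0.50), Aldh18a1 (11.6 ± 0.76), Cps1 (3.52 ± 0.22) and Ass1 (2.97 ± 0.42; SD, n = 3 throughout). The libraries of Asl and Aldh18a1 overlapped there, and so did those of Cps1 and Ass1. In WT the order was Arg2 (201 ± 4.25 CPM per kb), Oat (188 ± 1.75), Otc (57.3 ± 2.46), Odc1 (47.6 ± 0.72), Asl (15.0 ± 1.24), Aldh18a1 (11.97 ± 0.36), Cps1 (11.7 ± 0.41) and Ass1 (1.44 ± 0.29), and only Aldh18a1 and Cps1 overlapped as neighbours. Odc1 and Otc thus changed places between the genotypes. In both, the transcripts of the arginine-forming enzymes Ass1 and Asl were far below those of Arg2 and Oat.

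**Figure D3:**
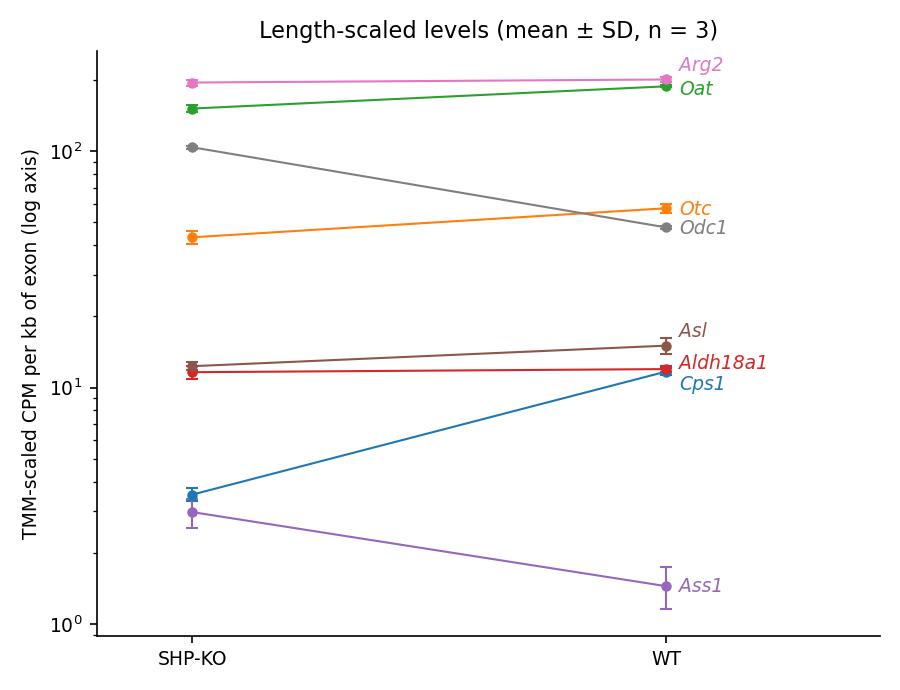
Mean TMM-scaled CPM per kb of exon (log axis) of each gene in SHP-KO and in WT, with SD bars over 3 libraries and a line joining the means. Odc1 and Otc cross, at 104 and 43.2 CPM per kb in SHP-KO against 47.6 and 57.3 CPM per kb in WT, and Cps1 lies near Ass1 in SHP-KO and near Aldh18a1 in WT.

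The crossing was also seen in each library. Odc1 per kb was 2.51, 2.25 and 2.47 times Otc in SHP-KO, against 0.85, 0.86 and 0.78 times in WT. Against Oat, the enzyme that forms ornithine, Odc1 stood at a ratio of 0.69, 0.72 and 0.66 in SHP-KO, against 0.25, 0.25 and 0.25 in WT. Ass1 over Asl was 0.28, 0.21 and 0.24 in SHP-KO, against 0.10, 0.10 and 0.08 in WT. Of 6 such ratios, chosen after the values were seen, all 6 separated the genotypes. Taken singly, 72.0% of all tested genes did so too, and the share over all pairs of genes was not computed. The two-sided exact permutation p was 0.10 for each, which is the smallest that 3 against 3 libraries allow. It remained 0.10 after Benjamini-Hochberg adjustment over the 6. Because the pairs were chosen on these same values, this p gives them no independent weight.

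**Figure D4:**
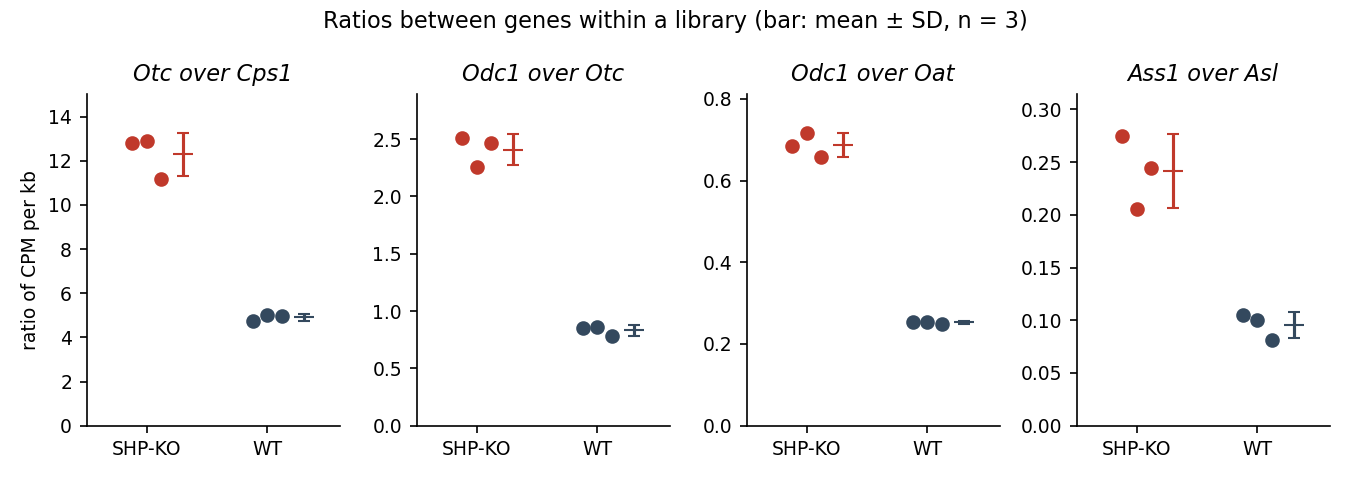
Ratio of the CPM per kb of 2 genes within each library, for SHP-KO (red) and WT (dark), with the mean ± SD beside the points. All 4 ratios shown are higher in every SHP-KO library, such as Otc over Cps1 at 12.3 ± 0.97 in SHP-KO and 4.91 ± 0.15 in WT.

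Promoter sequence was at hand for 5 of the 8 genes (RefSeq, GRCm38.p6, 250 bases before to 50 after the start site), namely Otc, Ass1, Oat, Aldh18a1 and Odc1. It is shown for the pair that rose and for a pair that fell, 5′ to 3′ on the gene's strand, so that their composition can be compared. Searches on both strands covered the core AGGTCA to which nuclear receptors bind. They also covered the E-box, written CACGTG. The TATA box was searched as TATAAA. The GC box was searched as GGGCGG. Capitals mark every match in these windows, and no matches of different motifs overlap.
Odc1: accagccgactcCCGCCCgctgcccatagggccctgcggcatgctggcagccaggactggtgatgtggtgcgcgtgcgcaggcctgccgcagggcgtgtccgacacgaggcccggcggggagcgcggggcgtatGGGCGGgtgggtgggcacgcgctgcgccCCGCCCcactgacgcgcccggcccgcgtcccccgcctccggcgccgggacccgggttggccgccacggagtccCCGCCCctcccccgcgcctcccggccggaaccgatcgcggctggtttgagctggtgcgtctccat
Ass1: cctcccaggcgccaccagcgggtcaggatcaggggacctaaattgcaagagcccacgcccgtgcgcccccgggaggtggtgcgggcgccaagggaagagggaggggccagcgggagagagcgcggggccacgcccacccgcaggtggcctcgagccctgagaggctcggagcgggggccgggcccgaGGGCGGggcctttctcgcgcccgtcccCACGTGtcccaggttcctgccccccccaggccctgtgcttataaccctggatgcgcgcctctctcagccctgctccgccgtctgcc
Otc: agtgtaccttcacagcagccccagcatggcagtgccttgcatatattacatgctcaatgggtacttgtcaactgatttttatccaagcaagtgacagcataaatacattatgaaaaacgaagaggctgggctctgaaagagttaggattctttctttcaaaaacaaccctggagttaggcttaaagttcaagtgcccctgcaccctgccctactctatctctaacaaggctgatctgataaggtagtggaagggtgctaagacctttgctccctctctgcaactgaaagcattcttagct
Oat: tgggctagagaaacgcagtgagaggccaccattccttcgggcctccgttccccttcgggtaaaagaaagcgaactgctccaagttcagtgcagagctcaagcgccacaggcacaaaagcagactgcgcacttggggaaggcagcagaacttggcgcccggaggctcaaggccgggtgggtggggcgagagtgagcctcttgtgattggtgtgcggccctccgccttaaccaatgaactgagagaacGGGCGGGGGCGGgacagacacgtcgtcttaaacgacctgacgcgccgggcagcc

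These windows lie, in GRCm38.p6, at chr12:17544623-17544922 on the plus strand (Odc1), chr2:31470020-31470319 on the plus strand (Ass1), chrX:10252055-10252354 on the plus strand (Otc) and chr7:132576349-132576648 on the minus strand (Oat). A GC box was found in 4 of the 5 promoters, all but that of Otc, and in 35.7% of the 32851 promoters of the table. The E-box was in 2, at base -36 from the start site in Ass1 and at base -59 in Aldh18a1, and in 7.15% of all promoters. AGGTCA (16.3% of all promoters) and TATAAA (13.6%) were not in these 5 windows. A match is a string of letters and not a site at which a factor was measured.

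Other enzymes and carriers of the route were read from 5 lists with 52 genes, of which 38 were tested: 9 rose, 16 fell and 13 did not pass. The 25 called are 65.8% of those tested, beside 70.6% of all tested genes, so the count is near the background, and the same background stands beside the counts of the single lists. Their median log2 fold change was -0.18. With the assumed CV of 0.2, 4 were called higher and 8 lower, 31.6% of those tested beside 33.4% of all tested genes. Of the glutamine and glutamate genes 2 of 11 tested rose and 4 fell. Gfpt1, which uses glutamine for hexosamine synthesis, fell by 0.54 on the log2 scale (SE 0.035). Gpt, alanine aminotransferase, rose to 737 ± 17.6 CPM in SHP-KO, against 499 ± 16.7 CPM in WT (log2 0.56, SE 0.028). Glud1, glutamate dehydrogenase, was singled out after its values were seen and fell by 0.29 on the log2 scale.

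Proline and P5C genes moved both ways. Prodh, the proline oxidase that yields P5C, was at 15.6, 12.7 and 16.5 CPM in SHP-KO, against 83.0, 87.2 and 86.8 CPM in WT. Its fall was 5.75-fold (log2 -2.52, SE 0.072, adjusted p 8.0e-50), larger than that of Cps1. Aldh4a1, which oxidises P5C to glutamate, was at 311, 296 and 302 CPM in SHP-KO, against 109, 117 and 119 CPM in WT. It rose 2.63-fold (log2 1.40, SE 0.036, adjusted p 3.5e-53). Pycrl, a P5C reductase, rose 1.30-fold, so that 2 of 4 tested genes of the list rose and 1 fell. The Prodh level per kb was 0.074, 0.063 and 0.080 times that of Aldh4a1 in SHP-KO, against 1.12, 1.09 and 1.07 times in WT.

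Mitochondrial carriers and Nags gave 2 higher and 3 lower of 5 tested genes. Slc25a15, which exchanges ornithine for citrulline across the inner membrane, rose to 585 ± 10.2 CPM in SHP-KO, against 393 ± 10.8 CPM in WT (log2 0.57, SE 0.028), whereas Otc and Cps1, which act behind it, fell. Slc25a22, a glutamate carrier, rose to 657 ± 17.9 CPM in SHP-KO, against 419 ± 14.9 CPM in WT (log2 0.65, SE 0.028). In contrast Slc25a13, the aspartate-glutamate carrier citrin, fell 2.49-fold (log2 -1.32, SE 0.093).

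Among genes listed for the use of arginine or the clearing of its methylated forms, 1 of 7 tested rose and 3 fell. Nos2, the inducible nitric oxide synthase, was at 23.3, 26.1 and 23.0 CPM in SHP-KO, against 133, 142 and 137 CPM in WT, a 5.67-fold fall (log2 -2.50, SE 0.057). In the same libraries the 9 macrophage markers summed to between 56.1 and 62.1 CPM in SHP-KO and between 116.0 and 118 CPM in WT, with 2 of 8 tested called higher and 4 lower. Most of that gap was Lyz2 (12.3 CPM in SHP-KO, 72.3 CPM in WT), without which the other 8 summed to between 42.3 and 50.01 CPM in SHP-KO and between 44.7 and 46.0 CPM in WT. Their part in the fall of Nos2 was not tested. Ddah1 hydrolyses asymmetric dimethylarginine, and Ddah2 is named for the same activity. Ddah1 fell 2.43-fold (log2 -1.28, SE 0.074), whereas Ddah2 rose to 13.6, 11.1 and 9.73 CPM in SHP-KO, against 1.24, 1.23 and 1.51 CPM in WT (8.53-fold, log2 3.09, SE 0.20). In WT replicates 1 to 3 Ddah2 had only 17, 14 and 20 counts. Arg1, the cytosolic arginase of liver, did not reach the filter, with 12 counts in all SHP-KO libraries and 6 in all WT libraries.

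Of the polyamine genes other than Odc1, 2 of 11 tested rose and 5 fell. Sat1, which acetylates polyamines for export and breakdown, was at 159, 162 and 161 CPM in SHP-KO, against 250.1, 252 and 256 CPM in WT, a 1.57-fold fall (log2 -0.65, SE 0.035). Azin1, the antizyme inhibitor that protects ornithine decarboxylase from degradation, fell 1.23-fold (log2 -0.30, SE 0.030). Eif5a, the translation factor that carries the spermidine-derived residue hypusine, fell 1.16-fold (log2 -0.21, SE 0.033). The 2 that rose were Dhps and Dohh, the enzymes that make hypusine, named here after their values were seen, at log2 0.47 and 0.20. The call of Dohh was lost without SHP-KO replicate 2 (log2 0.12, adjusted p 0.21) and without WT replicate 1 (log2 0.11, adjusted p 0.23), which left 1 polyamine gene higher, and also in DESeq2 (adjusted p 0.087), without scaling factors (adjusted p 0.055) and without a low count filter (adjusted p 0.11). Srm and Sms, the spermidine and spermine synthases, were likewise named for their role, with log2 fold changes of 0.28 (adjusted p 0.27, not passing) and -0.47 (adjusted p 0.0077). The count files list Amd1 and Amd2 at 0 and Oaz1 at 1 read over all 6 libraries, so no value can be given for the decarboxylase and the antizyme that they encode.

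**Figure D5:**
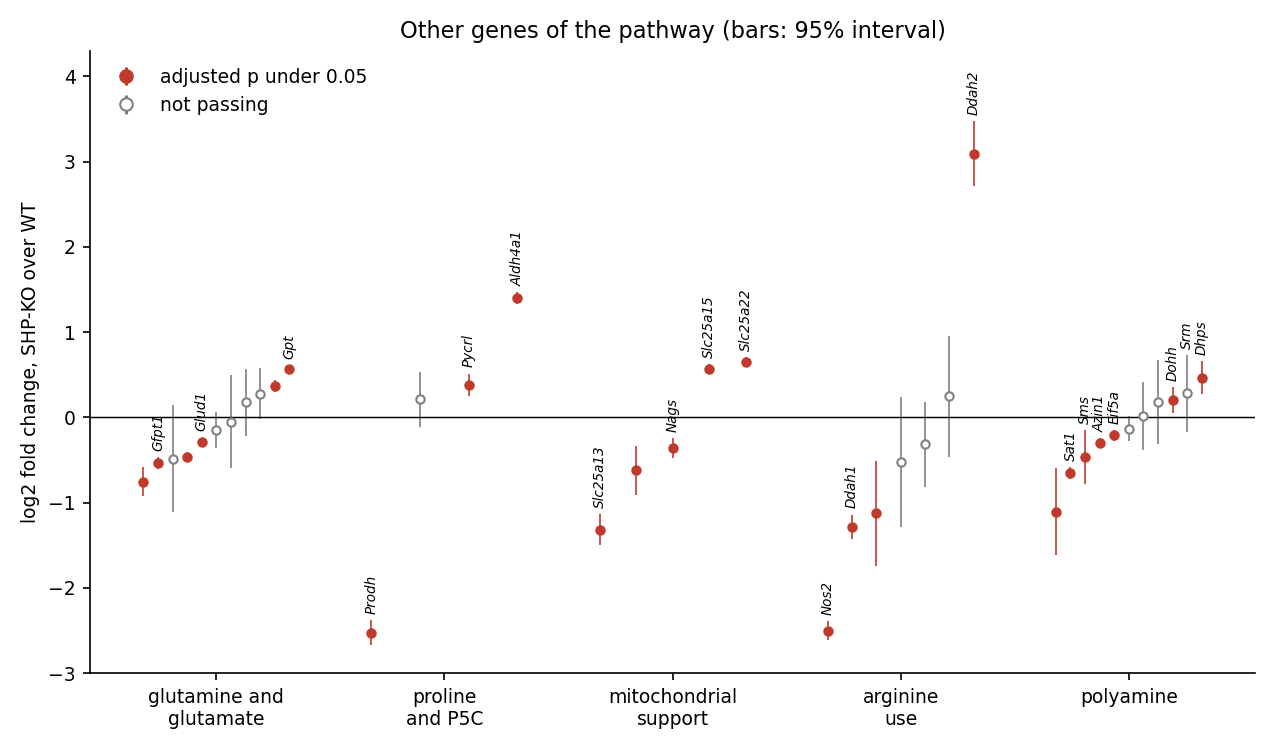
Log2 fold change of SHP-KO over WT for the 38 tested genes of the 5 pathway lists, ordered within each list, with 95% intervals and filled points where the adjusted p was under 0.05; genes described in the text are labelled. Prodh and Nos2 are the lowest points, at -2.52 and -2.50, and Ddah2 is the highest, at 3.09.

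Genes whose profile over the 6 libraries was closest to a member's were sought among all genes of at least 10 CPM, by the Euclidean distance between log2 CPM values centred on each gene's mean. The nearest to Cps1 was Rmnd5a (distance 0.11), at 53.4 ± 3.41 CPM in SHP-KO and 174 ± 1.59 CPM in WT. Akap13 was nearest to Arg2 (0.037), Bspry to Aldh18a1 (0.049), Pawr to Otc (0.070) and Gspt1 to Asl (0.080). For Odc1 it was Gm9926 (0.069), and for Ass1, whose own counts scatter most, Tor1b (0.33). None of these is another member, and 2 groups of 3 libraries give few points by which to tell profiles apart.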

How the data were processed

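Counts of reads per gene were made by the authors with featureCounts 1.5.2, unstranded and summed over exons, per the file headers, after trimming with Trimmomatic 0.38 and alignment with STAR 2.6.0c to mm9, per the submitters' processing notes. Multi-mapping reads were left out by these settings, so genes with close copies read low. The authors' deposited table gives, per gene, a log2 fold change, a mean level in log2 CPM, a p-value and its adjusted form, made with edgeR per the submitters' processing notes. Here genes passing filterByExpr (minimum count 10) were TMM-scaled and compared by the robust quasi-likelihood test of edgeR 4.0.16 (R 4.3.3), genotype being the only term, with Benjamini-Hochberg adjustment over all 12106 tested genes and a threshold of 0.05. SE came from that fit, and 95% intervals are 1.96 SE on either side. On simulated counts of 12106 genes for this comparison, 33 of 50 genes changed 1.25-fold, 49 of 50 changed 1.5-fold and 50 of 50 changed 2-fold were recovered, with 14 false calls. The changed genes all had more counts than Ass1, and they were far fewer than the 70.6% called in the data. The simulated spread was that of these libraries, which may be technical. These numbers therefore describe neither Ass1 nor variation between animals. Depth was 7956528 to 13511800 counts per library.

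The 8 genes, the pathway and marker lists and the alternatives were chosen with earlier results of these data known. Named were the 8 genes, Nr0b2, the 3 genes of smallest p per pathway list and the nearest gene to each member, of which 1 pathway gene and 1 nearest gene are not reported here. Alternatives were DESeq2 size factors, no scaling, epithelium marker scaling, other filters, DESeq2 1.42.0, limma-voom (limma 3.58.1), a non-robust fit, an exact test with an assumed CV of 0.2, the replicate number as a block and leaving out each library. Of the marker lists, those for enterocytes, T cells, adipocytes, crypt stem cells, Paneth cells and pancreatic acinar cells are given in the closing section. Figures were drawn with matplotlib 3.10.9.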

Additional observations from a re-analysis of the deposited data

How the results depend on the processing

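Cps1, Otc, Oat, Asl, Ass1 and Odc1 kept their direction in each alternative that gave a value, with log2 fold changes of -1.79 to -1.62, -0.47 to -0.30, -0.37 to -0.21, -0.36 to -0.18, 0.86 to 1.14 and 1.07 to 1.23. With an assumed CV of 0.2 (exact test of edgeR) 1 member, Cps1, was called lower, since Otc, Oat and Asl did not pass (adjusted p 0.19, 0.33 and 0.41), and Ass1 and Odc1 stayed called higher. In that setting 4041 genes passed (33.4%), among them 4 pathway genes higher and 8 lower, and Gpt, Gfpt1, Glud1, Pycrl, Nags, Azin1, Eif5a, Sms, Dhps and Dohh were not called (adjusted p 0.053 to 0.59). The order of Ass1 and Odc1 turned without WT replicate 1 (log2 1.126 and 1.12). At 10 CPM in at least 3 libraries Ass1 was not tested, leaving 1 member called higher. Ddah2 was not tested there either, which left 0 genes of the arginine list called higher. Aldh18a1 changed sign when scaled to the epithelium markers (log2 0.062) and without SHP-KO replicate 3 (log2 0.0035), and Arg2 when scaled to those markers (log2 0.064), never past the threshold. That scaling shifted the median of all genes by 0.107 on the log2 scale. Arg2 passed as lower without scaling factors (log2 -0.08, adjusted p 0.019) and without a low count filter (log2 -0.10, adjusted p 0.0032). Without any 1 of the 6 libraries no member gained or lost a call, and Ass1 ranged from 0.86 to 1.13. The replicate numbers are shared by name only: deviations of same-numbered libraries correlated at 0.019, 0.021 and -0.0064, and with the replicate block 8573 genes were called in place of 8543, with no change of call among the members. Ass1, with 124 counts in SHP-KO and 90 in WT, is the member whose precision depth limits most. Libraries of a genotype differed by little more than counting noise (chi-square per degree of freedom 1.33 to 1.97, against 88.3 to 103 between genotypes).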

Other observations

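Values of further cell type markers in the same libraries are given here without an explanation. The 10 enterocyte markers summed to between 77508 and 78651 CPM in SHP-KO and between 72861 and 75194 CPM in WT, with 6 called higher and 4 lower. Without Fabp2 the other 9 summed to between 39273 and 39827 CPM in SHP-KO and between 40751 and 41052 CPM in WT. Over all tested genes 35.2% were called higher and 35.4% lower. Of 9 tested T cell markers 8 rose, and all 4 tested adipocyte markers rose. Among the latter, Car3 and Cfd had 146 and 70 counts in all SHP-KO libraries together, against 8 and 10 in WT. These 2 passed the filter on low counts only through SHP-KO. Cidec, the adipocyte marker with the highest level, was at 137.5 CPM in SHP-KO and 116.0 CPM in WT (log2 0.25). Of 8 crypt stem cell markers 2 rose and 5 fell, and of 7 tested Paneth cell markers 5 fell and none rose. The crypt marker Lgr5 (34 counts in all SHP-KO libraries together, 12 in WT) and the T cell marker Cd5 (37 and 13) rose. Both passed the filter on low counts only through SHP-KO. The crypt marker Ascl2 (9 and 44 counts), called lower, passed only through WT. The 8 pancreatic acinar markers summed to between 9.39 and 12.1 CPM in SHP-KO and between 10.8 and 12.2 CPM in WT, with neither of the 2 tested ones passing.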
